A study of Mus musculus with 25 samples.

Results

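The 25 BXD strains of this dorsal root ganglion series were ranked by a blood score, and the 8 strains of highest score were compared with the 8 of lowest score. The score averages log2(scaled count + 1) of Hba-a1, Hba-a2, Hbb-bs and Alas2, so 16 of 25 strains entered the comparison and 9 lay between. The strains were chosen by the measured values of these 4 genes, and their differences are therefore described without a test. The 8 highest strains were, from the top, BXD1, BXD40, BXD42, BXD9, BXD36, BXD48, BXD77 and BXD21. The 8 lowest were BXD68, BXD60, BXD5, BXD73, BXD15, BXD16, BXD28 and, at the bottom, BXD13.

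Dorsal root ganglia hold the cell bodies of the sensory neurons that serve the trunk and limbs. BXD strains are recombinant inbred lines that descend from a C57BL6/J by DBA2/J cross, and all mice were 8 weeks old, with no treatment named in the labels. Names ended in TyJ for 6 of the 8 highest and 5 of the 8 lowest strains, and in RwwJ for the other 2 and 3. Each strain had 1 library of total RNA, so a strain's value holds its genotype, animal, dissection and library together. Sex, the number of animals pooled and whether the animals were bled or perfused are not stated in the labels. Values are called scaled counts here, because they behave as read counts brought to a common upper quartile and rounded, which no header states. Their scaled totals were 24637919 to 26860283 per library, and the estimated depth was 21790000 to 27210000 reads in the 8 highest strains and 20020000 to 40150000 in the 8 lowest. Mean log2 depth, highest minus lowest, differed by -0.193, with an exact two-sided permutation p of 0.143 over all splits of the 16 strains.

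Hemoglobin is a tetramer of alpha and beta globin chains, each holding a heme. Mature mouse red cells have no nucleus, and reticulocytes, the youngest cells in the circulation, still carry globin and Alas2 RNA. Alas2 is the erythroid form of the first enzyme of heme synthesis. Nucleated red cell precursors, granulocyte precursors and other dividing blood cells are found in bone marrow, which fills the vertebrae around the ganglia. Transcription of globin and heme genes in this lineage depends on GATA1 and KLF1.

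The bases upstream of 3 score genes are shown because these genes define the ranking and share a regulatory letter pattern. Each run is the 250 bases before the annotated start, 5′ to 3′ on the gene's strand, from RefSeq on GRCm38.p6. Capitals mark GATAA or its reverse complement TTATC, the core letters that GATA factors read.
Hba-a1 (chr11:32283422-32283671, + strand): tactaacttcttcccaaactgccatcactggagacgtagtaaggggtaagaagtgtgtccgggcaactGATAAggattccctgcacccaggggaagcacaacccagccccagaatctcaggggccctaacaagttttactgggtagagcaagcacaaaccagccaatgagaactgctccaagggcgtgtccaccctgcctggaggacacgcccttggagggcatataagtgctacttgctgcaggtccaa
Hbb-bs (chr7:103827929-103828178, - strand): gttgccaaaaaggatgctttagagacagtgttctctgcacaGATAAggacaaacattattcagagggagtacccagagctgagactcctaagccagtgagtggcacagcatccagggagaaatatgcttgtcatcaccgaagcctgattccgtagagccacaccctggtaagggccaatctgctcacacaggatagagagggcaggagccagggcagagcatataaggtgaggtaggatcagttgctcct
Alas2 (chrX:150547167-150547416, + strand): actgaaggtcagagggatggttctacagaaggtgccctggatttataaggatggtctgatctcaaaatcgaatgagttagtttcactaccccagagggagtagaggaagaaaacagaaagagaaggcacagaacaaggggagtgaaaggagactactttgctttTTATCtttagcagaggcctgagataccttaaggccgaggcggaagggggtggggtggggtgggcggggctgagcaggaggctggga
Each of these windows held 1 GATAA match on either strand, and so did that of Hba-a2. Among 27025 RefSeq promoter windows of the same length, 23.02% held at least 1. The letters CCAAT, searched on both strands, stood once upstream of Hba-a1, Hba-a2 and Hbb-bs and not in the Alas2 window, and 34.5% of all windows held them. A match in these letters is a description of the sequence and not a binding site. Hba-a1 and Hba-a2 could not be told apart in the part of this window that aligned, with 247 of 247 bases identical. Their coding sequences of 429 bases differed at 1 base and gave the same protein, so the assignment of reads to the 2 copies is uncertain. Hbb-bs and Hbb-bt likewise differed at 1 of 444 coding bases.

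The score spanned 3.44 log2 units over the 25 strains, from 12.94 in BXD1 down to 9.50 in BXD13, a 10.8-fold range. It averaged 11.83 ± 0.515 in the 8 highest strains and 10.04 ± 0.335 in the 8 lowest (SD, n = 8 each). BXD21 at 11.34 was the last strain inside the high group and BXD55 at 11.26 the first outside it. BXD68 at 10.48 was the last inside the low group and BXD87 at 10.72 the first outside. The neighbours on either side of the upper boundary thus differed by far less than the spread within the groups.

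Hbb-bs, the adult beta globin gene of the reference strain, had a lowest, median and highest scaled count of 8988, 13793 and 27528 in the 8 highest strains and 3557, 5430 and 7989 in the 8 lowest. The groups did not overlap for it. Alas2 had 590, 1019 and 1776 in the 8 highest strains and 253, 372 and 655 in the 8 lowest, and 7 of the 8 highest strains stood above every strain of the low group. Hba-a1 had 3106, 4539.5 and 11221 in the 8 highest strains and 1183, 2134 and 3987 in the 8 lowest. It separated the groups less cleanly, with 5 of the 8 highest strains above all of the lowest. Hba-a2 had 519, 2657.5 and 7437 in the 8 highest strains and 92, 174 and 1058 in the 8 lowest. The log2 differences were 1.43 for Hbb-bs, 1.39 for Alas2, 1.43 for Hba-a1 and 2.95 for Hba-a2, so Hba-a2 contributed the largest difference.

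**Figure D1:**
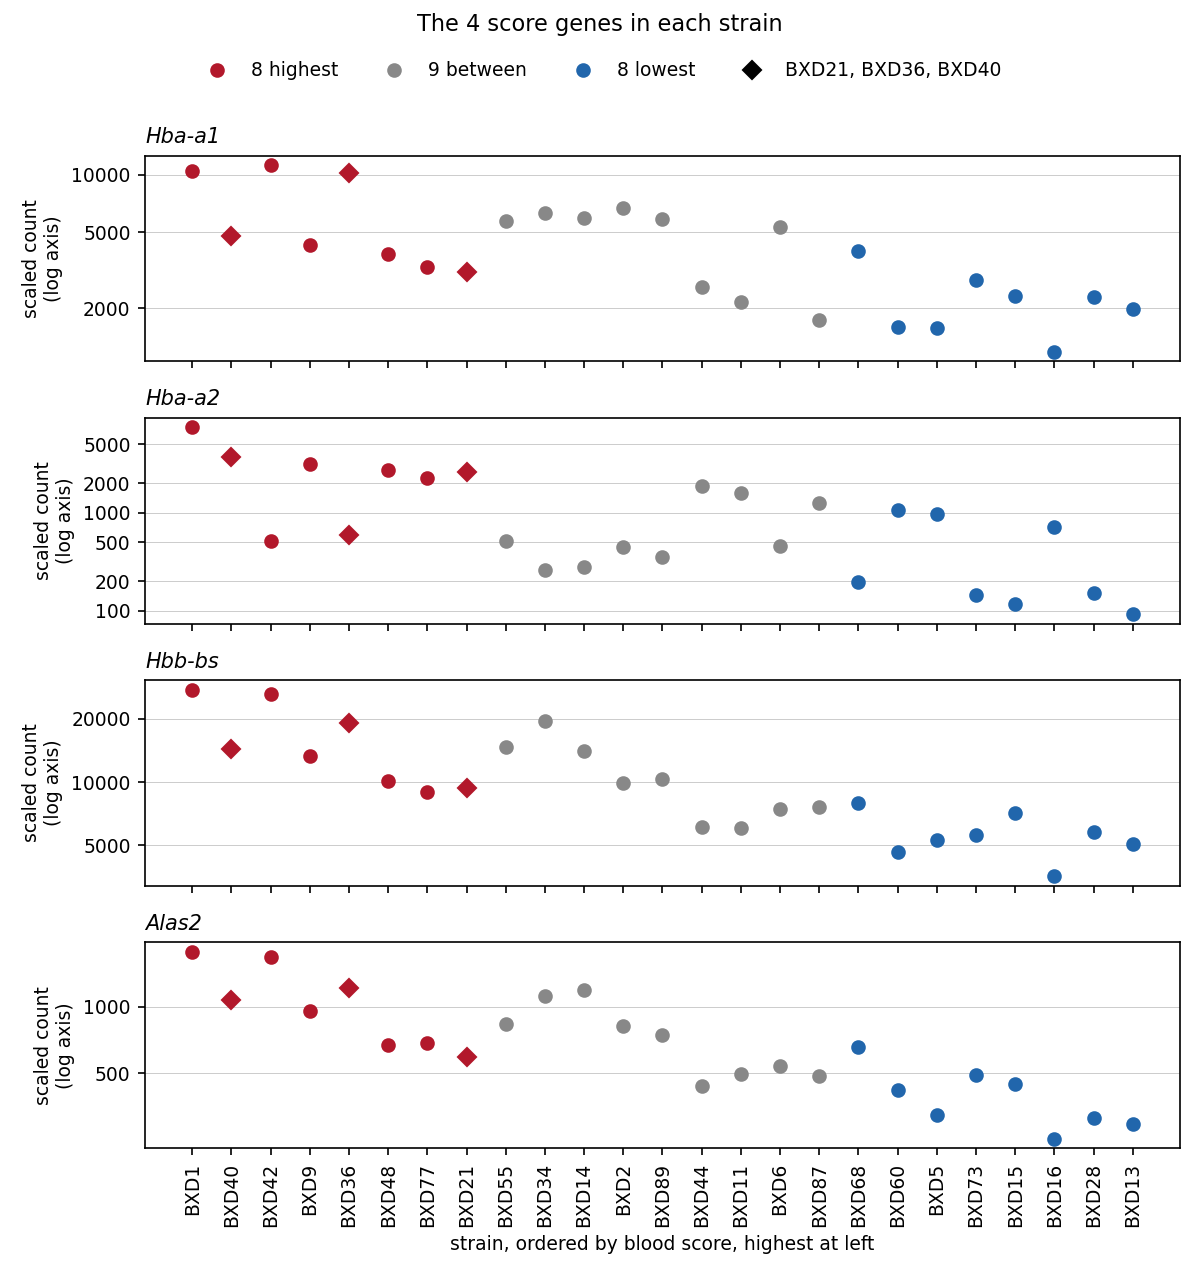
Scaled count on a log axis of the 4 score genes in each of the 25 strains, ordered by score with the highest at left; colour gives the group and diamonds mark BXD21, BXD36 and BXD40. Hbb-bs of the 8 highest strains lay between 8988 and 27528, above all of the 8 lowest, whereas Hba-a2 ran along separate upper and lower tracks.

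Hba-a2 stood at 2 levels relative to Hba-a1. The Hba-a2 to Hba-a1 ratio was 0.603 to 0.837 in 12 strains and 0.0414 to 0.0904 in 13, with no strain in between. The upper level held 6 of the 8 highest strains, 3 of the 8 lowest and 3 of the strains between. The lower level held BXD42 and BXD36 of the highest group, 5 of the lowest and 6 of those between. Hbq1b, a theta-like globin gene of the same chromosome 11 cluster, had 19 to 41 scaled counts in strains of the upper ratio level and 74 to 118 in those of the lower. Nprl3, whose introns hold regulatory elements of the alpha globin cluster, had 913 to 1179 scaled counts at the upper ratio level and 629 to 883 at the lower. Hbq1b and Nprl3 thus did not overlap between the ratio levels; Nprl3 was chosen after its values were seen, and all of this is given as a description.

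Membership depended in part on Hba-a2. BXD34 and BXD14 had Hbb-bs at 19602 and 13981 and Alas2 at 1120 and 1193 scaled counts, inside the range of the 8 highest strains, but Hba-a2 at 260 and 280, and they fell between the groups. BXD34, BXD14 and BXD55 entered the top 8 when the score left out Hba-a2, and also when Alas2 alone ranked the strains. The groups of 8 then shared 5 highest and 5 lowest strains with those of the full score, or 5 and 6 with Alas2 alone.

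**Figure D2:**
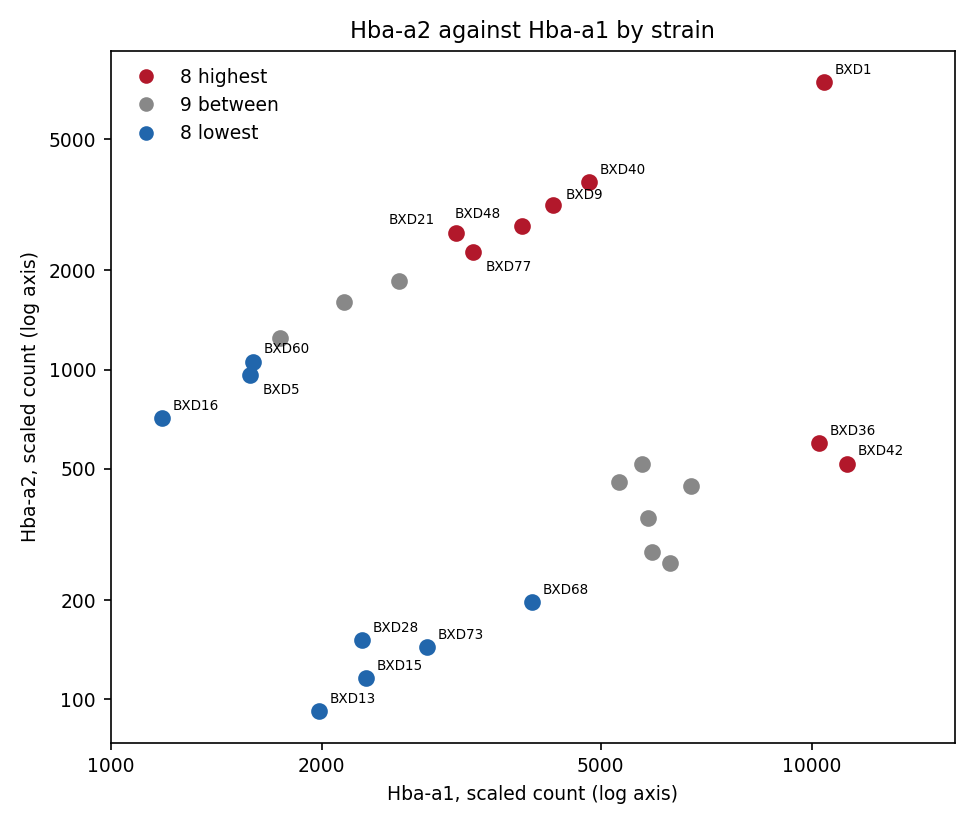
Scaled count of Hba-a2 against that of Hba-a1 in each strain, both on log axes, coloured by group, with the 16 strains of the comparison named. The 25 strains fell on an upper band, with ratios of 0.603 to 0.837, and a lower band, with ratios of 0.0414 to 0.0904, and both bands held strains of the highest and the lowest group.

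Of 16148 genes tested outside the score, 1817 (11.3%) passed limma's two-sided test at a Benjamini-Hochberg adjusted p under 0.05. They were 1135 genes (7.03%) higher and 682 genes (4.22%) lower in the 8 highest strains. The groups of 8 did not overlap for 34 higher genes (0.211%) and 19 lower genes (0.118%), and the median log2 difference over all genes was 0.014. The calls depended on which libraries entered. BXD21, BXD36 and BXD40, all in the high group, stood apart on the first principal component at 45.2 to 54.0, against 25.4 or less for the other 22. Without them no gene passed limma's adjusted threshold, 2901 genes had an unadjusted p under 0.05, and the 1135 higher and 682 lower genes all kept their direction. That fit reuses 5 of the 8 highest and all 8 lowest strains, so the kept direction is not separate evidence. Leaving out a single strain gave 528 calls without BXD68, 561 without BXD40, 600 without BXD28, 638 without BXD73, 639 without BXD36, 656 without BXD16, 901 without BXD13, 1034 without BXD21, 1179 without BXD60 and 1211 without BXD1, but 2871 without BXD48 and 3212 without BXD15. No adjusted call named below held in the 5 highest strains that remain without the 3 libraries against all 8 lowest, and the differences in those strains are given for the leading genes and lists.

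Many other genes of red cells and their precursors, but not all, were higher in the strains of high score. They are genes of the same lineage as the score genes, so they are described without a test. Slc4a1, the band 3 anion exchanger, had a lowest, median and highest scaled count of 341, 584 and 1116 in the 8 highest strains and 114, 251.5 and 332 in the 8 lowest. The groups did not overlap. Rhd, Ermap and Tent5c did not overlap either, with log2 differences of 1.29, 1.19 and 0.77. Kel, a blood group endopeptidase, differed by 1.61 and was above all of the lowest strains in 7 of the 8 highest.

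Regulators of the erythroid lineage were higher in the strains of high score as well. Gata1 had 11 to 46 scaled counts in the 8 highest strains and 2 to 13 in the 8 lowest, and Klf1 had 15 to 77 in the 8 highest against 10 to 27 in the 8 lowest. Their log2 differences were 1.38 and 1.30, and that of Hemgn, another nuclear protein of erythroid precursors, was 1.58. Hbb-bt had 1396, 3170 and 5821 scaled counts in the 8 highest strains and 500, 819 and 1930 in the 8 lowest. Hbq1b, the other of the 2 hemoglobin genes measured outside the score, went the other way at -0.25. It had 29 to 102 in the 8 highest strains and 19 to 108 in the 8 lowest. The Hbb-bt to Hbb-bs ratio ran from 0.0947 to 0.322, with no strain between 0.155 in BXD77 and 0.207 in BXD16. Strains of both groups lay on either side of that gap, so Hbb-bt also varied relative to Hbb-bs. Without BXD21, BXD36 and BXD40 the log2 differences were 1.40 for Slc4a1, 1.47 for Gata1 and 1.49 for Hbb-bt. In all, 21 of 24 genes of the erythroid transcription and reticulocyte list were higher by sign, against 52.2% of all genes tested, with a median log2 difference of 0.47.

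Red cell genes with high counts in every strain differed less, or the other way. Of 19 measured red cell membrane and skeleton genes, 11 were higher by sign, against 52.2% of all genes. Ank1, an ankyrin of red cells and neurons, had a log2 difference of -0.44. It had 5083 to 7471 scaled counts in the 8 highest strains and 6584 to 10867 in the 8 lowest. Sptb and Add2 were at -0.36 and -0.35, and Gypc, with lower counts, at -0.29. Of 17 heme synthesis and iron import genes, 13 were higher by sign, against the same 52.2%, with a median of 0.14. Tfrc, the transferrin receptor, had 3858 to 6006 scaled counts in the 8 highest strains and 3019 to 5691 in the 8 lowest, which overlapped almost wholly. Ube2o, a ubiquitin enzyme of reticulocyte maturation, was at -0.27, and Bpgm, which makes the oxygen affinity regulator of red cells, at 0.58. As these are bulk libraries, more cells of a type and more RNA per cell cannot be told apart for any gene named here.

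Outside the red cell lineage, genes of neutrophil precursors were higher in the strains of high score. Of 12 tested neutrophil granule genes of bone marrow precursors, 9 were higher, against 7.03% of all genes, and none was lower, with a median log2 difference of 1.50. Elane, the neutrophil elastase gene transcribed at the promyelocyte stage, had a lowest, median and highest scaled count of 57, 68 and 148 in the 8 highest strains and 15, 23 and 43 in the 8 lowest. Its groups did not overlap, and the log2 difference was 1.70 ± 0.24 (SE, limma adjusted p = 0.0092). Fcnb, a ficolin of marrow myeloid cells, had 22, 44.5 and 67 in the 8 highest strains and 3, 12 and 14 in the 8 lowest, and likewise did not overlap. Its log2 difference was 1.93 ± 0.29 (SE, limma adjusted p = 0.0096).

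Camp and Mpo, which encode the cathelicidin of secondary granules and the myeloperoxidase of primary granules, followed. Camp had 399, 882 and 1495 scaled counts in the 8 highest strains and 143, 291.5 and 442 in the 8 lowest, with 7 of the 8 highest above all of the lowest. Mpo had 117, 203.5 and 349 in the 8 highest strains and 31, 70 and 167 in the 8 lowest, and 6 of 8 stood above. Lcn2, the siderophore-binding lipocalin of secondary granules, differed by 1.53 (limma adjusted p = 0.0155). Of 12 mature neutrophil genes 5 were higher, against 7.03% of all genes, and none lower, with a median of 0.95, led by S100a8 and S100a9, the calprotectin subunits, at 1.52 and 1.49.

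The differences were nearly as large without the 3 libraries that stand apart, but they no longer passed. Without BXD21, BXD36 and BXD40, Elane differed by 1.67, Fcnb by 1.90 and Camp by 1.49, with limma adjusted p of 0.0735, 0.0735 and 0.0824. The granule list then had a median of 1.41 and 10 of 12 members at an unadjusted p under 0.05 and higher, against 10.8% of all genes. When Alas2 alone ranked the strains, 9 of the 12 granule genes were higher, against 1.74% of all genes called in either direction, and Elane differed by 1.8 (limma adjusted p = 0.0066). With the score without Hba-a2, 10 of 12 were higher, against 10.5% of all genes called in either direction. Both rankings reuse score genes and share 5 of the highest and 5 or 6 of the lowest strains with the full score. They are therefore not separate evidence.

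**Figure D3:**
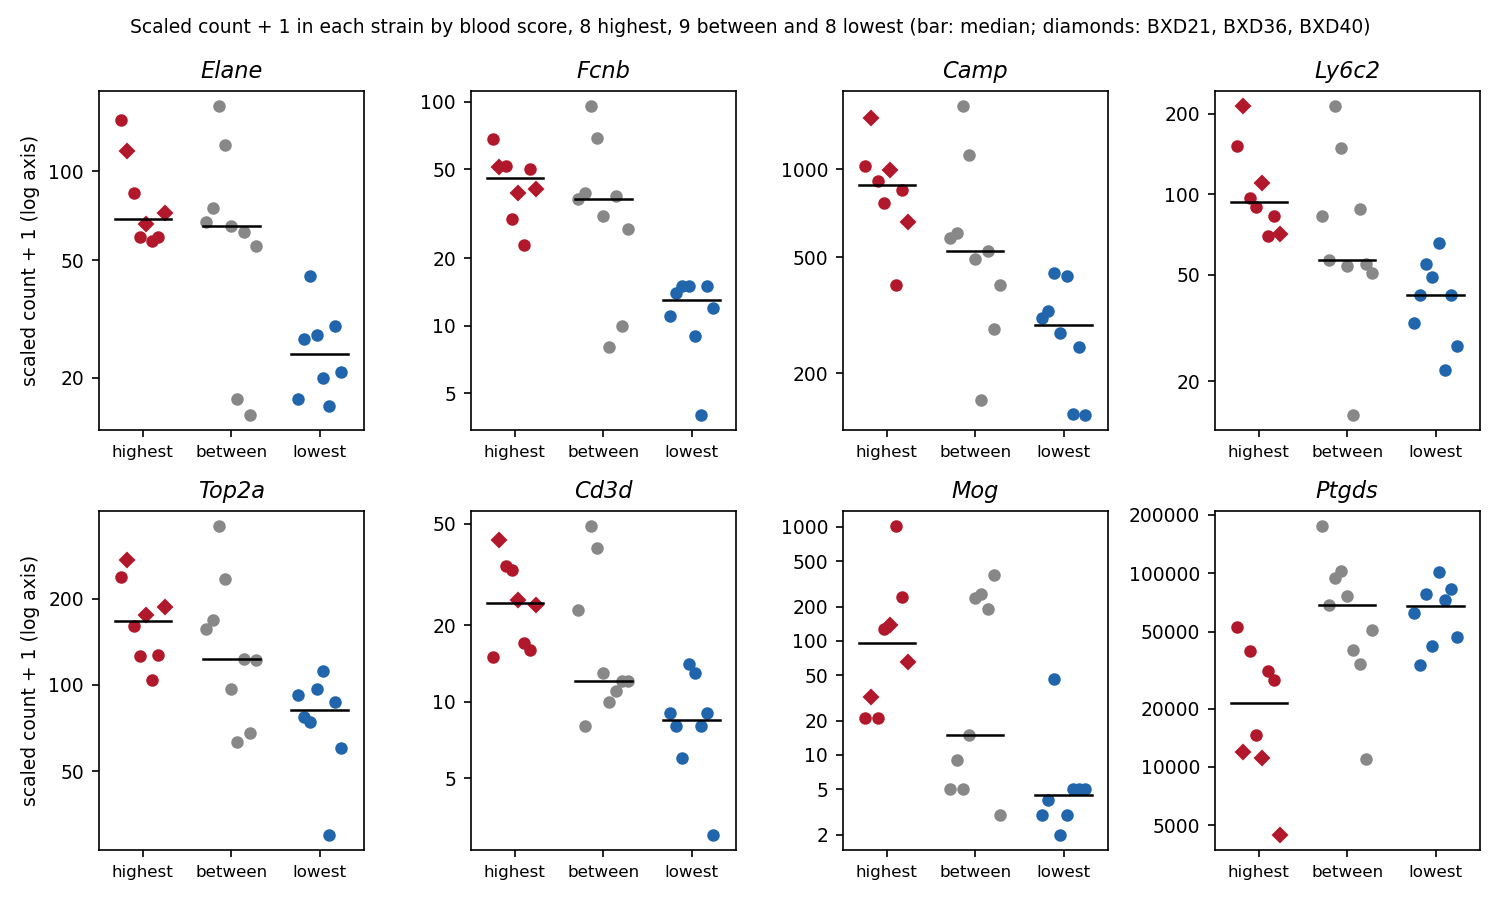
Scaled count + 1 on a log axis in each strain of the highest (n = 8), between (n = 9) and lowest (n = 8) score, with bars at medians and diamonds for BXD21, BXD36 and BXD40. Elane, Fcnb, Ly6c2 and Cd3d of the 8 highest strains stood above all of the 8 lowest, and Mog and Ptgds spread widely within the groups.

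Monocyte and cell division genes were higher too. Of 10 genes of the blood monocyte list 7 were higher, against 7.03% of all genes, and none lower, with a median log2 difference of 1.10. The largest difference on it was that of Cd177, at 1.38, which encodes a neutrophil antigen, so the list is not wholly separate from the neutrophil lists. Ly6c2, the surface antigen of classical monocytes, had 69, 92.5 and 213 scaled counts in the 8 highest strains and 21, 41 and 65 in the 8 lowest, with no overlap, and differed by 1.38 ± 0.26 (SE, limma adjusted p = 0.0128). Of 15 proliferation genes 8 were higher, against the same 7.03%, and none lower, with a median of 0.71. Top2a, the topoisomerase of dividing cells, had 103, 166.5 and 271 in the 8 highest strains and 29, 81 and 111 in the 8 lowest. Its log2 difference was 1.16 ± 0.25 (SE, limma adjusted p = 0.0155), and that of Ccnb2, a mitotic cyclin, was 1.18. Without the 3 libraries the monocyte list had a median of 0.92 and the proliferation list one of 0.68.

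Some lymphocyte and platelet genes passed. Of 9 T cell and NK cell genes 2 were higher, against 7.03% of all genes, among them Cd3d, a chain of the T cell receptor complex, with 14 to 42 scaled counts in the 8 highest strains and 2 to 13 in the 8 lowest. Of 12 B cell genes 2 were higher, and Vpreb3, a gene of B cell precursors, had 18 to 102 in the 8 highest strains against 6 to 33 in the 8 lowest. Of 10 platelet and megakaryocyte genes 2 were higher, and Ppbp, a platelet chemokine, differed by 1.24. Without the 3 libraries Cd3d differed by 1.42 and Ppbp by 1.08, and the B cell list median was 0.46, against 0.48 with them. B cell calls depended on how the strains were ranked, with 9 of 12 higher when the score left out Hba-a2, against 10.5% of all genes called in either direction.

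Macrophage genes were also higher. Of 15 macrophage genes 7 were higher, against 7.03% of all genes, and none lower, with a median log2 difference of 0.62, which was 0.76 without the 3 libraries. Aif1, a calcium-binding protein of macrophages, had 99 to 222 scaled counts in the 8 highest strains and 47 to 127 in the 8 lowest, and Adgre1, the F4/80 antigen, had 209 to 355 in the 8 highest against 131 to 309 in the 8 lowest. Of 7 MHC class II genes 4 were higher, against the same 7.03%, with a median of 0.81 that was 0.85 without the 3 libraries. H2-Ab1, a class II beta chain, had 1863, 2856.5 and 4853 in the 8 highest strains and 866, 1400 and 3137 in the 8 lowest, so its groups overlapped and the log2 difference was 0.95 ± 0.24 (SE, limma adjusted p = 0.0254).

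No vessel wall gene and no pan-neuronal gene passed. None of 16 endothelial genes and none of 10 mural cell genes passed, with median log2 differences of 0.17 and 0.16. The endothelial list mean, in log2 units, was 8.24 to 9.34 in the 8 highest strains and 8.29 to 9.72 in the 8 lowest. None of 12 pan-neuronal genes passed, and the pan-neuronal list mean was 13.99 to 14.33 in the 8 highest strains and 13.98 to 14.29 in the 8 lowest, so markers of the labelled tissue were present in both groups. None of 6 peptidergic nociceptor genes passed. Of 10 large-diameter neuron genes 1 was lower, against 4.22% of all genes. It was Runx3, a transcription factor of proprioceptors, at -0.66. The list median of -0.36 became -0.08 without the 3 libraries, where Runx3 was at -0.52.

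Among neuronal genes, 3 peptide genes of itch neurons were higher. Of 11 genes of non-peptidergic nociceptors and itch neurons, Sst, Nppb and Nts were higher, against 7.03% of all genes, and none was lower, with a list median of 0.13. Sst, somatostatin, had 359, 481 and 1333 scaled counts in the 8 highest strains and 77, 167.5 and 461 in the 8 lowest. Nppb, the natriuretic peptide of pruriceptors, had 464, 822 and 1736 in the 8 highest strains and 197, 326 and 882 in the 8 lowest. Their log2 differences were 1.58 ± 0.37 and 1.09 ± 0.32 (SE, limma adjusted p = 0.0205 and 0.0393), and Nts, neurotensin, differed by 0.83. None of the list's genes passed when Alas2 alone ranked the strains, where Sst differed by 0.51. Without the 3 libraries Sst differed by 1.65, Nppb by 0.79 and Nts by 0.60.

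Spinal cord genes were higher in the strains of high score. Of 10 spinal cord genes 9 were higher, against 7.03% of all genes, with a median log2 difference of 2.99, and the spinal cord list mean was 5.11 to 10.57 in the 8 highest strains and 3.58 to 6.29 in the 8 lowest. Mog, a myelin protein of oligodendrocytes, had 20, 95.5 and 1018 scaled counts in the 8 highest strains and 1, 3.5 and 45 in the 8 lowest. Slc6a5, the glycine transporter of inhibitory spinal neurons, had 6 to 1502 in the 8 highest strains and 2 to 50 in the 8 lowest. BXD48 held the highest value of both, and Olig1 and Mobp, also of oligodendrocytes, differed by 4.34 and 3.62. None of the 10 passed when Alas2 alone ranked the strains or when Hba-a2 left the score, with list medians of 0.53 and 0.02. Without BXD21, BXD36 and BXD40 the list median was 3.21. With the spinal cord list mean as a covariate, 7 of the 12 granule genes still passed, against 8.94% of all genes called in either direction. None of 16 skeletal muscle genes passed, at a median of 1.94, and the muscle list mean was 7.92 to 10.54 in the 8 highest strains and 5.13 to 11.48 in the 8 lowest, which overlapped. With the muscle list mean as a covariate 317 genes passed, against 1817 without it. Of the 1135 higher and 682 lower genes, 228 and 74 passed again. The part of these tissues in the other differences was not tested beyond these covariates.

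The largest differences among the genes with a symbol that passed were those of 2 processed pseudogenes. Gm8420 had 334, 519.5 and 550 scaled counts in the 8 highest strains and 0, 2 and 440 in the 8 lowest, where only BXD15 and BXD16 stood above 3. Gm10704 had 205 to 338 in the 8 highest strains and 0 to 311 in the 8 lowest, with BXD15 again the high one. Both genes stood at separate levels in the 9 strains between as well, and their log2 differences were 5.89 and 5.62, or 5.77 and 5.43 without BXD21, BXD36 and BXD40. When Alas2 alone ranked the strains they were 2.07 and 2.42, and neither passed. Reads of such a copy can be shared with the gene it derives from, so these values are uncertain.

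Other genes were lower in the strains of high score. Eps8l1, an actin-regulating protein of epithelia, differed most among the lower genes named here, at -2.74, with 2 to 116 scaled counts in the 8 highest strains and 9 to 450 in the 8 lowest. Ptgds, prostaglandin D2 synthase, had 4469, 21314.5 and 52647 in the 8 highest strains and 33766, 67464.5 and 101165 in the 8 lowest. Slc22a6, an organic anion transporter, and Slc6a20a, a proline transporter, fell by 1.87 and 1.54 on the log2 scale. Fn1, fibronectin, had 1873 to 10479 in the 8 highest strains and 5835 to 10879 in the 8 lowest. Without the 3 libraries Ptgds differed by -0.998, Fn1 by -0.40, Eps8l1 by -2.39, Slc22a6 by -1.39 and Slc6a20a by -0.99. Spo11, the meiotic recombination nuclease, was low throughout, with 0 to 7 in the 8 highest strains and 7 to 31 in the 8 lowest.

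Some genes that respond to heme and iron were higher. Of 14, Hmox1, Slc40a1 and Ftl1 were higher, against 7.03% of all genes, and none lower, with a list median of 0.21. Hmox1, which breaks heme down, had 871, 1103 and 1343 scaled counts in the 8 highest strains and 646, 774 and 928 in the 8 lowest, which differed by 0.53 ± 0.10 on the log2 scale (SE, limma adjusted p = 0.0128). Slc40a1, the iron exporter ferroportin, had 112 to 180 in the 8 highest strains and 82 to 113 in the 8 lowest. Ftl1, the ferritin light chain, differed by 0.38. Jun, an immediate early transcription factor, had 1414, 1691.5 and 1875 in the 8 highest strains and 1907, 2086 and 2544 in the 8 lowest. Its groups did not overlap, the log2 difference being -0.32 ± 0.06 (SE, limma adjusted p = 0.0143). Jun was the only member of the 13 immediate early genes to pass, against 4.22% of all genes lower. Of 12 hypoxia targets 2 were lower, against the same 4.22%, and of 15 circadian clock genes none passed. Without the 3 libraries Hmox1 differed by 0.44 and Jun by -0.32.

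The other lists held between 0 and 3 calls each, to be read against 7.03% of all genes higher and 4.22% lower. Of 8 satellite glia genes 2 were higher, with a median log2 difference of 0.36, and of 14 myelinating Schwann cell genes 1 was higher, with a median of 0.25. Of 14 fibroblast and matrix genes 1 was higher and 1, Fn1, lower, with a median of 0.17. None of 10 adipose genes passed, at a median of 0.50. Of 9 cartilage and bone genes 2 were higher and 1 lower, and of 15 interferon response genes 2 were higher. Of 13 glucocorticoid targets and metallothioneins 2 were higher, with Lcn2 as the larger difference.

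The differences also followed transcript length. Genes that were higher had a median transcript length of 1710 bases and those that were lower 5115, against 3333.5 for all genes tested. Over 5 equal bins of genes from the shortest to the longest transcripts, the median log2 difference ran 0.23, 0.09, 0.01, -0.05 and -0.15. Without BXD21, BXD36 and BXD40 it ran 0.16, 0.05, 0.01, -0.02 and -0.04. The median difference between the longest and the shortest bin in a library was -0.574 to 0.182 in the 8 highest strains and -0.265 to 0.348 in the 8 lowest, with BXD21, BXD36 and BXD40 at -0.574 to -0.477. With this difference as a covariate no gene passed limma's adjusted threshold, and 2018 had an unadjusted p under 0.05. The granule list then had a median of 0.999 and 9 of 12 members at an unadjusted p under 0.05 and higher, against 7.86% of all genes, whereas the B cell list had a median of 0.03. All 19 ribosomal protein genes, which are short, were higher by sign, and 5 passed, with a median of 0.43 that was 0.08 with the covariate.

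**Figure D4:**
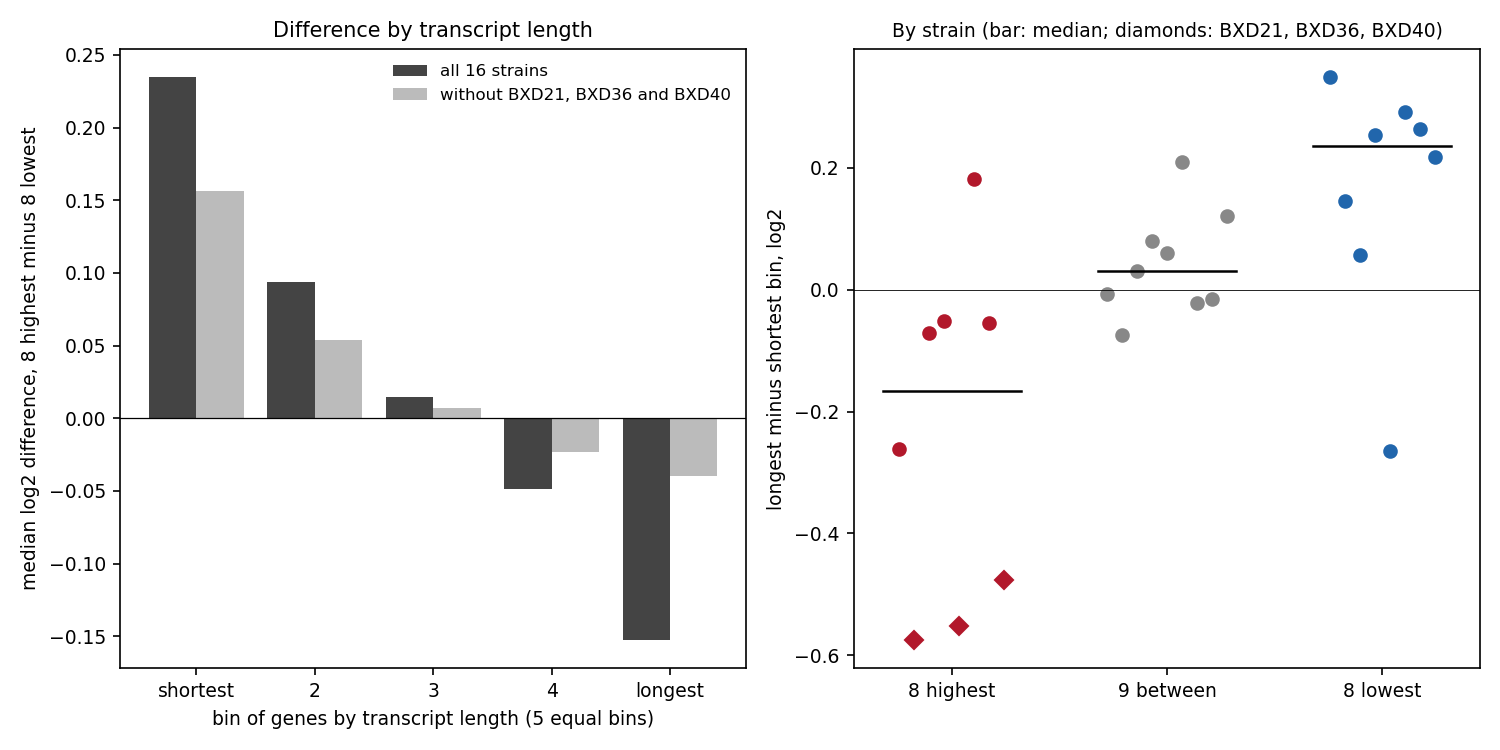
Left, median log2 difference, 8 highest minus 8 lowest strains, in 5 equal bins of genes by transcript length, for all 16 strains and without BXD21, BXD36 and BXD40; right, the median of the longest bin minus that of the shortest in each strain, in log2 units around the mean of all strains. The shortest bin was at 0.23 and the longest at -0.15, and the 3 strains marked by diamonds lay at or below -0.477.

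The 9 strains between the groups were placed there by the same score, and their libraries were not in the comparison of 16. Their scores ran only from 10.72 to 11.26, and a slope on the score, in log2 units per unit of score, was fitted with limma. BXD55, BXD34, BXD14, BXD2 and BXD89, of highest score among them, were at the lower Hba-a2 to Hba-a1 ratio level, as was BXD6. BXD44, BXD11 and BXD87, of lower score, were at the upper level. In the groups of 8, by contrast, the upper level held 6 of the highest and 3 of the lowest strains. What the ratio level contributed to the slopes was not tested. In that fit 8 genes (0.0495%) passed. Of the 1135 genes higher in the 8 highest strains, 51.0% had a slope above 0, close to the 50.5% of all genes, and of the 682 lower genes 56.2% had one below 0. The calls as a whole therefore did not recur by direction in these strains.

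Some blood and marrow lists kept their direction there and others did not. The slope was above 0 for 12 of 12 granule genes, 12 of 12 mature neutrophil genes, 10 of 10 monocyte genes, 15 of 15 proliferation genes, 12 of 12 B cell genes and 7 of 7 MHC class II genes. It was above 0 for 17 of 24 erythroid transcription and reticulocyte genes, 13 of 19 red cell membrane and skeleton genes, 12 of 15 macrophage genes, 8 of 10 platelet genes and 7 of 9 T cell and NK cell genes. Of the heme synthesis and iron import genes 7 of 17 had a slope above 0, with a median of -0.10, and of the red cell antioxidant genes 3 of 7, with a median of -0.11. Lists of other tissue were also above 0, with 14 of 16 endothelial and 14 of 14 fibroblast and matrix genes. These counts are descriptions, because the genes of a list share the same 9 libraries. Elane had a slope of 3.23 and Fcnb one of 3.21, and neither passed the adjusted threshold. The spinal cord list went the other way, with 0 of 10 slopes above 0, and so did Sst, Nppb and Nts, at -3.34, -1.56 and -1.94. Ptgds and Fn1, lower in the 8 highest strains, had slopes of 4.15 and 3.24.

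Among the genes called in the first comparison, the 5 of each direction whose log2 levels had the Pearson correlation of largest size with the score over these 9 strains, whatever its sign, were Hbb-bt, Bpgm, Prnp, Mcm3 and Napsa of the higher genes and Chrm5, Kcnk5, Slc26a2, Mtor and Ralgapb of the lower. As the genes were picked by that correlation in the same strains, the sizes of their slopes are descriptions. Hbb-bt had a slope of 1.75, but it differs from the score gene Hbb-bs at only 1 coding base, so its slope gives no separate evidence. Mcm3, a subunit of the replicative helicase, had one of 1.98, in the direction of the groups. Napsa, an aspartic protease, was at 1.93 and Bpgm at 0.95. Mtor and Ralgapb, both of growth signalling, were at -0.61 and -0.43, also in the direction of the groups. Prnp, the prion protein gene, was at -0.61, against the direction. Chrm5, a muscarinic receptor, Kcnk5, a potassium leak channel, and Slc26a2, a sulfate transporter, had slopes of 4.35, 2.72 and 3.24, and their directions turned round.

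The score was also compared by the ending of the strain name, which took no part in the ranking. RwwJ strains made up 2 of the 8 highest and 3 of the 8 lowest strains, with a two-sided Fisher exact p of 1. The score averaged 10.84 ± 0.491 in 9 RwwJ strains and 11.02 ± 0.96 in 16 TyJ strains (SD), a difference of -0.18 with an exact two-sided permutation p of 0.607 over 2042975 splits. Of the 73 measured genes of the red cell lists, the score genes among them, none passed limma's adjusted threshold between RwwJ and TyJ, and 13 had an unadjusted p under 0.05. Over all genes tested in that comparison 0% passed, with 2440 at an unadjusted p under 0.05. Strains of both endings were thus found at the top and at the bottom of the ranking.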

How the data were processed

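RNA of dorsal root ganglia was sequenced in 25 BXD strains, 1 library each, with TruSeq libraries that do not mark strand. The submitters used HTSeq, TopHat2 2.0.9 and CASAVA 1.8.0 on NCBIM37 (mm9), per the submitters' processing notes. The deposited unit was a normalized score: the authors' whole numbers behaved as read counts scaled to a common upper quartile and rounded, which the values show and no header states. No count model was fitted. Symbols, biotypes and lengths came from GENCODE M21, a later build, and matched 15697 of 16220 identifiers. Depth was estimated from the spacing of low values, which was weak in BXD36.

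The 4 score genes ranked the strains. All other genes with a mean of at least 10 were tested on log2(scaled count + 1), which understates differences of low genes, with limma 3.58.1 in R 4.3.3 (trended prior, two-sided, Benjamini-Hochberg at 0.05). The fit was tested on simulated data. With 1 library a strain, p-values measure the spread between strains. Named genes were the red cell lists, the 12 called genes of largest difference in each direction, up to 4 called genes of each other list, and called genes followed over the 9 strains between. The strains, 34 gene lists and genes were chosen with earlier results of these data known.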

Additional observations from a re-analysis of the deposited data

Results flagged for a closer look

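Of 71 groups of 8 or 9 strains looked at, 4 had a strain far from the others for their size. Chance alone gives about 1 in 20, which is close to the share seen. In the 8 highest strains BXD1 had a score of 12.938, with the nearest at 11.991. That group was cut by the score itself, so the rate of 1 in 20 does not apply to it and the gap is a description. The B cell list mean of BXD1, in log2 units, was 7.683 in the same group, with the nearest at 6.443. BXD48 had the lowest mean of the red cell antioxidant genes among the 8 highest strains, 11.639, with the nearest at 11.930. In the 8 lowest strains BXD5 had a spinal cord list mean of 6.294, with the nearest at 4.329.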

How the results depend on the processing

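The count of genes that passed, 1817 with 1135 higher and 682 lower, changed by less than 1.5 times with a pseudocount of 10, no filter, a mean of at least 50, rescaling by median ratios, the name ending as a covariate, a spinal cord covariate and, by its total and both directions, a score without Hba-a2. The genes changed more than the totals: of the 1135 higher and 682 lower genes, 554 and 222 passed again with the spinal cord covariate and 478 and 197 with the score without Hba-a2. Alas2 alone gave 281 (244 higher, 37 lower), a muscle covariate 317 (230 and 87), 12 against 12 strains 1051 (617 and 434), the score over 25 strains 2569 (1576 and 993), the score over the 9 between 8 (5 and 3), array weights 4175 (2433 and 1742) and an exact rank-sum test 640 (389 and 251). Added after seeing the data were 3 settings. The Hba-a2 to Hba-a1 ratio as covariate gave 269 (198 and 71), and the length covariate and leaving out BXD21, BXD36 and BXD40 gave 0. With 6 against 6 strains the count was 0, and 2972 genes had an unadjusted p under 0.05. Leaving out 1 strain gave 528 to 3212 calls, 345 to 1958 higher and 183 to 1254 lower. The causes were not tested.

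Of 44 named genes that passed outside the red cell lists, none kept its adjusted p without the 3 libraries, and 20 turned round as slopes over the 9 strains between: Mog -7.08, Mobp -5.92, Olig1 -9.80, Slc6a5 -9.38, Gm8420 -7.92, Gm10704 -6.33, Sst -3.34, Nppb -1.56, Nts -1.94, Runx3 0.45, Jun 0.33, Ptgds 4.15, Slc22a6 5.05, Slc6a20a 4.22, Spo11 3.77, Fn1 3.24, Prnp -0.61, Chrm5 4.35, Kcnk5 2.72 and Slc26a2 3.24, the last 2 past limma's adjusted threshold. Slc6a5 was also at -0.42 with the spinal cord covariate and at -0.36 without Hba-a2 in the score, where Kcnk5 was at 0.019. The score difference between RwwJ and TyJ kept its sign and the count of red cell genes called between them stayed 0 in the alternatives run. No paired analysis was possible because each strain had 1 library and the labels give no replicate numbers. One library a strain leaves genotype, dissection and library inseparable.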
